A study of Mus musculus with 8 samples.

Results

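Nuclear receptor coactivators and corepressors are the proteins through which hormone and lipid receptors switch transcription, and 9 of their genes are described here by where Qki-5, PPARb and RNA polymerase II (Pol II) were found on them in mouse oligodendrocytes. The genes are Ncoa1, Ncoa2, Ncoa3, Ncoa6, Ncoa7, Ncor1, Nrip1, Ep300 and Crebbp, taken by symbol from RefSeq GRCm38 out of 21887 protein-coding genes on the assembled chromosomes. A peak was assigned to a gene when its centre lay in the gene span or within 5 kb of it. Chromatin immunoprecipitation with sequencing (ChIP-seq) had been carried out on differentiated cells, with antibodies against Qki-5, PPARb, the HA tag and Pol II, and on isolated cells, with antibodies against Qki-5 and PPARb. Neural stem cells of FvB/C57BL6 hybrid background, carrying ectopic PPARb, gave rise to the differentiated cells, used at passage 7. Their medium was Neurobasal with B-27, 2 mM GlutaMAX-I, IGF-1 at 100 ng/mL and the thyroid hormone T3 at 50 ng/mL. The sample titles name the introduced receptor HA-PPAR, and the HA antibody therefore reports the introduced protein, while the PPARb antibody does not separate it from the cells' own. The isolated cells came from C57BL6 mouse brains on magnetic beads that bind O4, a lipid antigen of oligodendrocyte surfaces, and were at passage 0. There was 1 library for each antibody and each of the 2 inputs, and a replicate error cannot be given for any value.

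PPARb, encoded by Ppard, binds DNA as a pair with a retinoid X receptor. Without ligand, such receptors can hold a corepressor complex built on Ncor1, which carries a histone deacetylase, and ligand exchanges it for coactivators that dock through short leucine-rich motifs. The coactivators in turn bring in the acetyltransferases p300 and CBP, which acetylate histones at enhancers and promoters. The thyroid hormone receptor, whose hormone was in the medium and which drives oligodendrocyte maturation, uses the same set of proteins. Qki-5 is the nuclear isoform of Quaking, an RNA-binding protein needed for myelin. The data below show binding at the genes of these cofactors and say nothing of where the cofactor proteins themselves bind.

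In differentiated cells 30179 peaks were listed for Qki-5, 26406 for PPARb, 30042 with the HA antibody and 13270 for Pol II, and in isolated cells 8380 for Qki-5 and 1393 for PPARb, from libraries of 12624236 to 24880851 tags. Peak height is the authors' tag count of a 200 bp peak per 10000000 tags of its library, and ranks were taken only within a list. Of 10 oligodendrocyte markers, Olig1 and Cnp had a Pol II peak at a start in differentiated cells, while Sox10, Mbp and Mog had no start peak in any list. Among 5 precursor and stem cell markers, Sox2, Nes and Vim had one, as did Slc1a3 of 5 astrocyte and Tubb3 of 4 neuron markers, and none of 4 microglia and 3 endothelial markers. Qki-5 in isolated cells was at the starts of Mag, Cnp and Mobp, of Nes and Vim, and of the endothelial markers Cldn5 and Flt1. What part any mixture of cells has in the results below was not tested.

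All 9 coregulator genes were occupied at their start in differentiated cells by all 4 antibodies. A start peak is one whose centre lay within 1 kb of a RefSeq start of the gene or of the upstream end of its span. For Ncoa2 and Ncoa3 no strand was given, and the nearer end of the span was used. Over all 21887 protein-coding genes, treated the same way, 49.2% had a Qki-5 start peak, 44.8% PPARb, 49.4% HA, 38.8% Pol II, and 34.3% had start peaks of all 4. Among the 4945 genes with spans of at least 50 kb, a range that holds all 9 members, 64.0% had Qki-5, 57.6% PPARb, 65.6% HA, 49.0% Pol II and 43.4% all 4. Start peaks of Qki-5 and PPARb together were at 42.9% of all genes and 54.9% of the long ones, and those of PPARb, HA and Pol II together at 34.9% and 44.4%. In isolated cells a Qki-5 start peak was called at 1 of the 9, Ncor1, against 28.0% of all genes and 33.1% of the long ones, and a PPARb start peak at none of the 9, against 5.33% and 6.03%. These shares describe single libraries and carry no test.

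**Figure D1:**
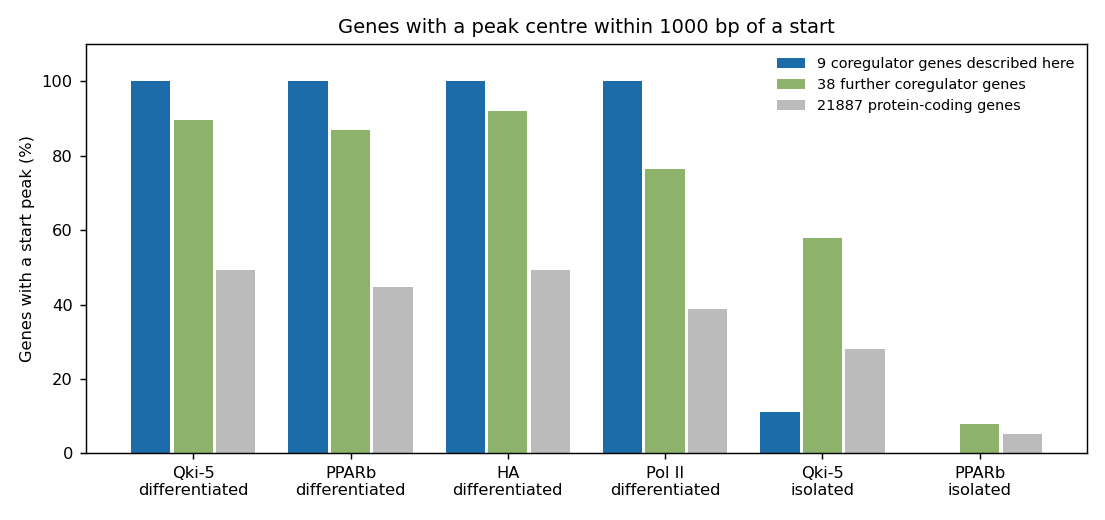
Share of genes with a peak centre within 1000 bp of a start (y axis, percent) in each of the 6 libraries (x axis), for the 9 coregulator genes, 38 further coregulator genes and all 21887 protein-coding genes. The first bar stands at 100% in the 4 differentiated-cell libraries and in isolated cells at 11.1% (Qki-5) and 0% (PPARb).

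With the wider window of 5 kb around the span, the 9 genes held 25 HA, 21 Qki-5, 20 PPARb and 11 Pol II peaks in differentiated cells, and 6 Qki-5 peaks and 1 PPARb peak in isolated cells. In isolated cells these 6 Qki-5 peaks lay at 5 genes and the PPARb peak at 1. Of all protein-coding genes, 61.2% had a Qki-5 peak in this window, 57.3% PPARb, 60.6% HA and 47.5% Pol II in differentiated cells, and 35.7% had Qki-5 and 7.57% PPARb in isolated cells. The members are long, with spans of 65869 to 235123 bp and a median of 132624 bp, against a median of 17169 bp over all genes, so a window over the span favours them. Among genes of at least 50 kb, the shares were 82.1%, 77.3%, 81.3%, 62.5%, 45.0% and 9.34%, in the same order. Overlapping peaks were joined into 37 sites, of which 19 lay at the members' own starts.

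The 3 steroid receptor coactivator genes, Ncoa1, Ncoa2 and Ncoa3, encode related proteins that bind liganded receptors and recruit acetyltransferases. At Ncoa1 (chromosome 12, 4247362 to 4477206, minus strand) the start carried modest PPARb and Qki-5 peaks and taller HA. PPARb reached 7.57 (95% exact Poisson interval 4.41 to 12.1), Qki-5 9.4 (5.48 to 15.1) and Pol II 10 (6.5 to 14.8). PPARb, HA and Pol II overlapped in 1 site around the start, while the Qki-5 peak stood 310 bp from the Pol II peak, on its upstream side. HA had 2 start peaks, 17.4 at the start and 24.6 at 797 bp into the gene, where no other library had a peak. By fold over input the order was reversed, with 66.15 at the start and 11.65 at 797 bp, rank 17794 of 30042. The Ncoa1 peaks for Qki-5, PPARb and Pol II were the lowest tallest peaks of the 9 genes in their lists, although the intervals overlap those of most other members. One more HA peak, 7.92, lay 19686 bp into the gene.

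Ncoa2 (chromosome 1, 13139105 to 13374227) had a cluster of sites over its right-hand end, where its Pol II peak of 12.1 (8.14 to 17.2) was called. Qki-5, PPARb and HA shared a site close to that end, with heights of 12.7, 10.2 and 23.8. A second group lay between about 1.2 and 1.8 kb inside the same end, with Qki-5 peaks of 13.3 and 12.7, a PPARb peak of 11.6 and HA peaks of 17.4 and 18.2. The isolated-cell Qki-5 peak of 10.5 (6.68 to 15.8) fell in this second group, at chr1:13372551-13372751, and overlapped an HA peak. It missed the nearest differentiated-cell Qki-5 peak narrowly, with centres 206 bp apart. The Pol II peak itself overlapped none of the others, the nearest being HA at 355 bp. Farther inside were a Qki-5 peak of 7.74 in differentiated cells and a Qki-5 peak of 6.41 in isolated cells, each alone at its site.

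Ncoa3 (chromosome 2, 165992637 to 166073242) had the tallest Pol II peak of the 9, 20.9 (15.6 to 27.4), at rank 555 of 13270. Its Qki-5 start peak, 17.7 (12.1 to 25), was also the tallest of the members in that list, whereas PPARb stood at 9.79 (6.14 to 14.8) and HA at 16.6 (10.3 to 25.4). That PPARb peak was 4.65-fold over input, close to the 4-fold that the caller required. All 4 peaks formed 1 joined site at the left-hand end of the span, although Qki-5 and Pol II themselves, 216 bp apart, did not overlap. At Ncoa3, 2 further sites lay over 36 kb inside the gene without Pol II. PPARb and HA shared one of them at 5.79 and 8.71, and Qki-5, PPARb and HA the other at 9.4, 6.23 and 8.71. No isolated-cell peak was called at Ncoa1 or Ncoa3, which says only that none was detectable in those libraries. Listed peaks held 0.849% of isolated-cell Qki-5 tags and 0.116% of PPARb tags, against 3.66% and 2.78% in differentiated cells.

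Ncoa6 and Ncoa7 encode coactivators of other families. The Ncoa6 protein is a scaffold of a complex that methylates histone H3, and the Ncoa7 protein binds receptors and belongs to a family linked to resistance to oxidative stress. Ncoa6 (chromosome 2, 155390656 to 155473911, minus strand) had 2 adjacent start sites. Qki-5, PPARb and Pol II met at 399 to 463 bp into the gene, with heights of 9.4, 10.7 and 14.5, and a second Qki-5 peak of 13.8 met the HA peak of 21.4 at the start itself. Inside the gene, at chr2:155453635-155453870, lay a site with all 4 differentiated-cell libraries, with Qki-5 at 11.6, PPARb at 7.57, HA at 13.5 and Pol II at 6.43. It was the one site within a member's span and away from a start that carried Pol II.

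Ncoa7 (chromosome 10, 30645582 to 30807700, minus strand) was occupied not at the outer end of its span but around a RefSeq start inside it. PPARb at 13.8 (9.37 to 19.6) and Pol II at 13.3 (9.13 to 18.6) lay 17 bp apart, and Qki-5 at 14.9 and HA at 21.4 shared a site farther into the gene. A lone PPARb peak of 12 stood 71632 bp into the gene. In isolated cells a Qki-5 peak of 6.87 (3.85 to 11.3) was counted for Ncoa7 by the window rule, but it lay 3392 bp upstream and overlapped most of a tRNA gene, n-TEctc9 (30811140 to 30811211). The nearest differentiated-cell peak, PPARb, was 7900 bp away.

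Ncor1 encodes the scaffold of the corepressor complex that unliganded receptors hold, and it was the one member with peaks of both antibodies in isolated cells. Its span (chromosome 11, 62315663 to 62457414, minus strand) begins 1027 bp from that of Pigl, a gene of the membrane anchor pathway on the plus strand, so the 2 genes are transcribed away from each other. Within the Ncor1 start lay Pol II at 17.7 (12.8 to 23.7), rank 880 of its list, with PPARb at 12 (7.92 to 17.5), HA at 20.6 and isolated-cell Qki-5 at 8.7 (5.24 to 13.6). The isolated-cell Qki-5 peak and the differentiated-cell PPARb peak had centres 13 bp apart. Qki-5 in differentiated cells had no peak in that site. It was called on both sides instead, at 11.1 downstream with PPARb at 8.01 and HA at 18.2, and at 13.3 beside Pigl.

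At the Pigl start the PPARb peaks of both cell kinds coincided, with 12.5 (8.28 to 18) in differentiated cells and 8.16 (4.57 to 13.5) in isolated cells, and centres 17 bp apart. Differentiated-cell Qki-5 at 13.3 and HA at 12.7 shared this site, and no Pol II peak was called in it. The isolated-cell PPARb peak held 15 tags at a fold over input of 4.98, close to the 4-fold that the caller required. The isolated-cell Qki-5 peak at the Ncor1 start stood at 4.25-fold. Their distance from the caller's limit is small, and neither has a second library.

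Nrip1 encodes a corepressor that binds liganded receptors and restrains metabolic genes in fat and muscle. Its start (chromosome 16, 76287403 to 76373827, minus strand) was compact, with the centres of Qki-5, PPARb and HA all within 106 bp of Pol II. Qki-5 reached 13.8 (8.95 to 20.4), PPARb 13.8 (9.37 to 19.6), HA 26.1 (18 to 36.7) and Pol II 14.5 (10.1 to 20). The HA peak was the tallest of all HA peaks at the 9 genes. By fold over input it reached 99.23, and PPARb 52.37, the highest values of the members in those lists. The input tags under these peaks are not given here, and a high fold can rest on few of them. HA alone was also found at 635 bp into the gene, at 24.6, and at 2 sites deeper inside, at 7.13 and 8.71. The peak at 635 bp was 6.66-fold over input, rank 26045 of 30042 by fold. Nrip1 had no peak in isolated cells.

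The RefSeq promoter windows of GRCm38.p6, from 250 bp before to 50 bp after a start, are shown for Ncor1, Nrip1, Pigl and Trap1. PPARb peaks of differentiated cells overlap the windows shown for Ncor1 and Nrip1. Such peaks also overlap windows of Ncoa1, Ncoa7 and Ep300, which are not printed. Pigl and Trap1 are neighbours whose starts each carry a site with 1 antibody in both cell kinds. The windows shown are written 5′ to 3′ on the strand of the gene, with matches to the motifs searched in capitals. The positions are chr11:62457283-62457582 (minus), chr16:76373000-76373299 (minus), chr11:62458191-62458490 (plus) and chr16:4077761-4078060 (minus), in that order.
Ncor1: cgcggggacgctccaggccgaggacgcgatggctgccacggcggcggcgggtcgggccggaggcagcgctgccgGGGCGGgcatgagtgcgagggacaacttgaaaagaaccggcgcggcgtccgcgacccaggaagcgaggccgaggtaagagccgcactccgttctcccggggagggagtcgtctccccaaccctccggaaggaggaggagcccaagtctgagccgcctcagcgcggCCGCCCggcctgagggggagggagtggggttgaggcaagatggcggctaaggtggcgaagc
Nrip1: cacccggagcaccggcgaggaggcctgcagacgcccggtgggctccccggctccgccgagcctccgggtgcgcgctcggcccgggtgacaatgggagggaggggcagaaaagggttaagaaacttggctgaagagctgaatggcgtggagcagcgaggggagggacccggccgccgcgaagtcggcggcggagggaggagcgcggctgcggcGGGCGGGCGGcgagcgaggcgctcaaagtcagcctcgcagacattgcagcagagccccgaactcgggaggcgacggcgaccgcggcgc
Pigl: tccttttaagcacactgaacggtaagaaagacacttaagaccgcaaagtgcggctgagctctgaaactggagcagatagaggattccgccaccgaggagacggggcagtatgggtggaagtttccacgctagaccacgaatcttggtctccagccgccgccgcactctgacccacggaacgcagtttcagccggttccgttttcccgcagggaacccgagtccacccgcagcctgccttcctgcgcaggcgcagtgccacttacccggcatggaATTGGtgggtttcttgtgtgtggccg
Trap1: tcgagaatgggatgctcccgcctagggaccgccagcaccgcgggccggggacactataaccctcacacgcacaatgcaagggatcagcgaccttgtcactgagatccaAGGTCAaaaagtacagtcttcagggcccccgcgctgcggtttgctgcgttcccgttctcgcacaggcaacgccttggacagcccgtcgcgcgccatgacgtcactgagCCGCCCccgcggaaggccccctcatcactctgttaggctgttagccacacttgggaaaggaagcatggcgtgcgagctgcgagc
The motifs, searched on both strands, were the receptor core site AGGTCA and its direct repeat with a spacer of 1 base (DR1). The others were the GC box GGGCGG, the CCAAT box, the ETS-type site CCGGAAGT and the Quaking recognition core ACTAAC, an RNA site written as DNA. GGGCGG is in the Ncor1 and Nrip1 windows, and there are 2 matches in each. The Pigl window holds a CCAAT match. The Trap1 window holds AGGTCA at bases 109 to 114 and GGGCGG. Over 10 windows of the 7 members that have an entry (Ncoa2 and Ncoa3 have none), GGGCGG was in 6, AGGTCA in 1 at a start of Ncoa6 without a peak, CCAAT in 1, the same window, and the direct repeat, ACTAAC and CCGGAAGT in none. The median GC content of these 10 windows was 67.8%, against 52.7% over all windows, and its part in the GGGCGG count was not tested. Of all 32851 promoter windows, 35.7% hold GGGCGG, 37.4% CCAAT, 16.3% AGGTCA, 6.09% ACTAAC, 3.89% CCGGAAGT and 0.0396% the direct repeat. A match in letters is not a binding site, and a window without one says nothing of the factor.

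Ep300 and Crebbp encode the acetyltransferases p300 and CBP, related proteins shared by many activators. At Ep300 (chromosome 15, 81586209 to 81652077, plus strand) Pol II reached 16.9 (12.2 to 22.8), rank 1007, at the start itself, with HA at 16.6. Qki-5 at 11.1 (6.76 to 17.1), PPARb at 10.7 and HA at 11.9 formed a separate site 713 to 863 bp upstream, joined there by isolated-cell Qki-5 at 10.1 (6.32 to 15.3). The isolated-cell peak lay 1029 bp from the start, just beyond the 1 kb limit, so it is not counted as a start peak. At 12.3-fold over input it was the one isolated-cell peak at the 9 genes above 8-fold. A second PPARb peak, 8.01, lay between the 2 sites.

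Crebbp (chromosome 16, 4081334 to 4213957, minus strand) had a compact site at its start, with Qki-5 at 10.5, PPARb at 12.9, HA at 18.2 and Pol II at 12.1 all within 49 bp of the Pol II centre. Inside the gene, 52583 bp from the nearest start, Qki-5, PPARb and HA met at 9.96, 13.4 and 17.4 without Pol II. Qki-5 had 2 more peaks inside the gene, both of 6.08, one of them with HA at 7.92, and one of 7.19 near a listed start. The tallest PPARb peak assigned to any of the 9 genes, 17.8 (12.7 to 24.2), lay downstream of Crebbp at chr16:4077750-4077950. That site belongs in position to Trap1, a mitochondrial chaperone gene whose start is covered and whose span ends 3494 bp from that of Crebbp. Qki-5 at 16.6, HA at 16.6 and Pol II at 12.1 were also there, with isolated-cell Qki-5 at 5.95 (3.17 to 10.2). Without it, the tallest PPARb peak of Crebbp was the intragenic one of 13.4.

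**Figure D2:**
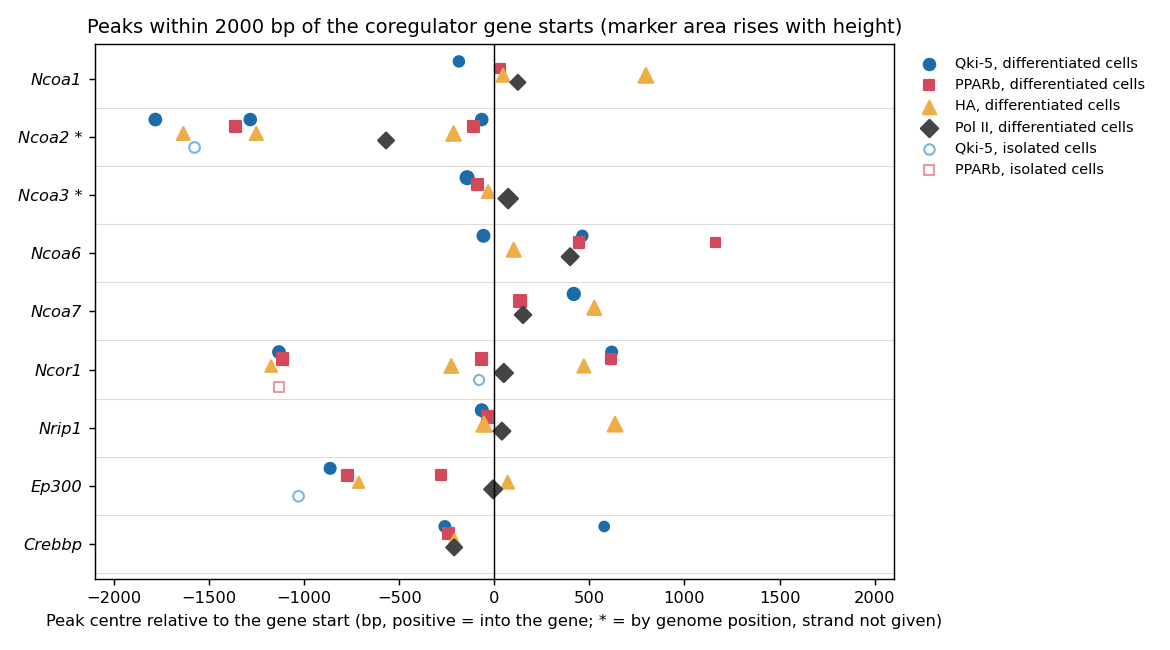
Centres of peaks within 2 kb of the start of each gene, the one nearest its Pol II peak (x axis, bp, positive into the gene; for Ncoa2 and Ncoa3, by genome position), with the marker area rising with peak height and filled markers for differentiated cells and open markers for isolated cells. At Crebbp and Nrip1 a marker of each of the 4 differentiated-cell libraries stands in 1 group, with a further Qki-5 marker at Crebbp and a further HA marker at Nrip1 downstream, while at Ep300 and Ncor1 the differentiated-cell Qki-5 markers stand apart from Pol II.

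Around the starts, Qki-5 overlapped Pol II at fewer of these genes than PPARb or HA did. The nearest Qki-5 start peak overlapped the Pol II start peak at 3 of 9 genes, Ncoa6, Nrip1 and Crebbp, with a median distance between centres of 267 bp and a range of 49 to 857 bp. For PPARb the overlap was found at 7 of 9, with a median of 93 bp, and for HA at 5 of 9, with a median of 105 bp. At all other genes with both start peaks, the median distance to Pol II was 118 bp (Qki-5), 111 bp (PPARb) and 97 bp (HA), and 74.4%, 76.6% and 76.7% overlapped. The 9 genes and the rest were not compared by a test, and the difference between the antibodies rests on 9 genes with 1 library each. By overlap, 45.5% of all 11 Pol II peaks at the members had a Qki-5 partner (95% exact interval 16.7 to 76.6), against 73.8% of the other Pol II peaks. With centres allowed to lie 500 bp apart, the share at the members was 72.7%. The share of the other Pol II peaks at 500 bp was not counted, so this value has no counterpart.

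For each pair of lists compared, the counting interval of the share at the members included the share over the other peaks. Of the 21 Qki-5 peaks, 61.9% overlapped a PPARb peak (95% exact interval 38.4 to 81.9), against 65.1% of the other Qki-5 peaks. PPARb peaks overlapped Qki-5 in 65.0% of 20 cases (40.8 to 84.6), against 74.4% elsewhere, and HA in 75.0% (50.9 to 91.3), against 73.5%. Of the 25 HA peaks, 60.0% overlapped PPARb (38.7 to 78.9), against 64.6%. Of the 37 sites, 5 held all 4 differentiated-cell libraries: the starts of Ncoa3, Nrip1 and Crebbp, the site inside Ncoa6, and the start of Trap1. Sites with a single library numbered 5 for HA, 4 for Qki-5 and 3 for PPARb in differentiated cells, and 2 for Qki-5 in isolated cells. Pol II stood alone at 1, at Ncoa2. The 4 differentiated-cell lists share 1 input, whose part in the overlap was not tested.

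The tallest Pol II peak of each gene lay at 4.17% to 37.1% from the top of its list, with a median of 12.6%, against 33.6% for the tallest Pol II peak of other genes that have one and 37.1% for those of at least 50 kb. For HA the median was 16.3%, against 26.2% for other genes and 20.9% for the long ones. For Qki-5 it was 29.8%, against 21.7% and 24.2%, and for PPARb 31.8%, against 28.8% and 26.0%. In the Qki-5 and PPARb lists, the tallest peak counted for Crebbp lay at the Trap1 start and that for Ncor1 at the Pigl start. When each list was limited to its 1391 tallest peaks, Pol II start peaks remained at 3 of the 9 genes, Ncoa3, Ncor1 and Ep300, against 6.37% of all genes. In the same limited lists no member had a start peak of Qki-5 (5.31% of all genes), PPARb (2.74%) or HA (3.17%) in differentiated cells, nor of Qki-5 (7.03%) in isolated cells. With fold over input in place of height, the peak of highest fold at each gene was taken, which need not be its tallest. The medians were then 15.5% (Qki-5), 16.5% (PPARb), 6.26% (HA) and 5.2% (Pol II). The order of the antibodies was alike, and all 4 medians were nearer the top. For HA at Ncoa1 the tallest peak ranked 17794 of 30042 by fold, and another peak gave the position of 3.04%. Where the tallest peaks themselves stood by fold was not summarised, so the move does not describe them. The medians by fold were not computed for other genes, so whether this move is particular to the members is not known.

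**Figure D3:**
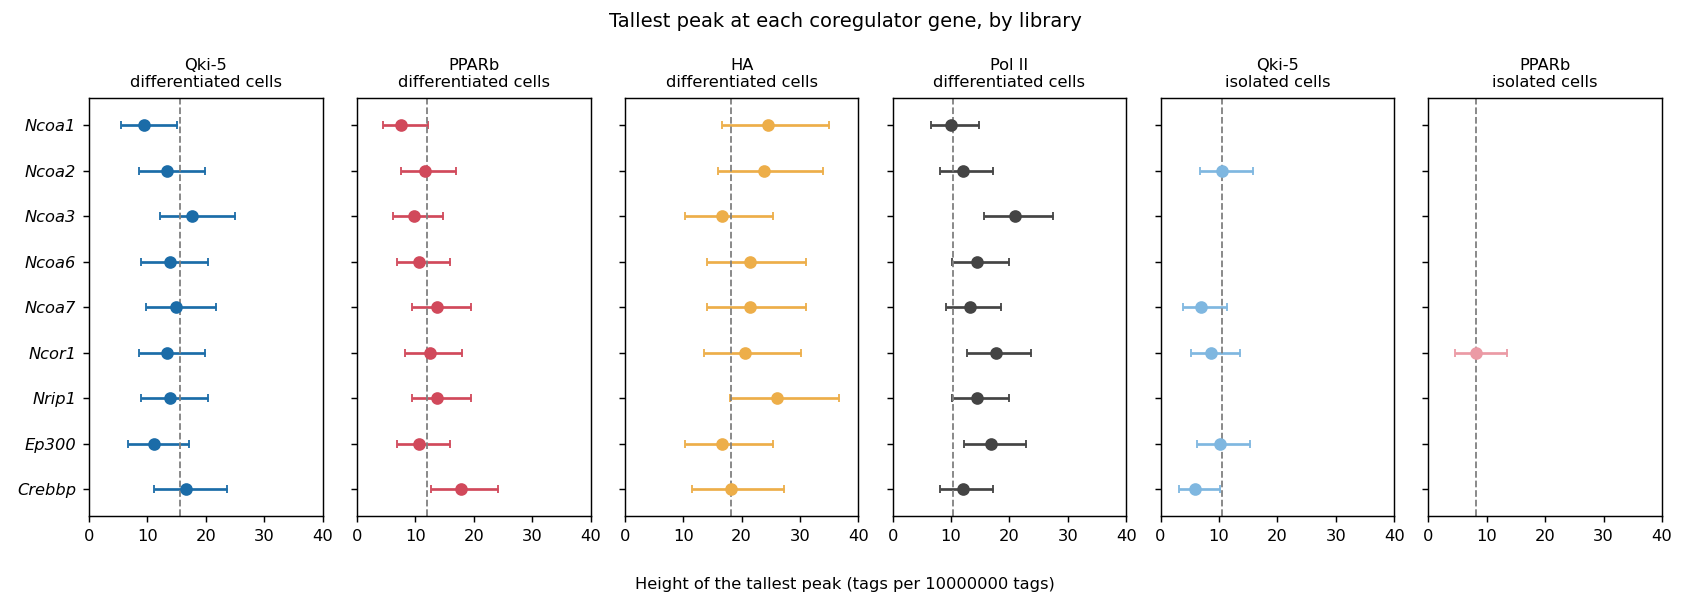
Height of the tallest peak at each of the 9 genes (x axis, tags per 10000000 tags, with 95% exact Poisson intervals of the tag number) in the 6 libraries, with the median tallest peak of all other genes that have one as a dashed line. Pol II heights run from 10 at Ncoa1 to 20.9 at Ncoa3, and in isolated cells 5 genes have a Qki-5 point and Ncor1 alone a PPARb point. The differentiated-cell Qki-5 and PPARb points of Crebbp are peaks at the Trap1 start, and those of Ncor1 are peaks at the Pigl start.

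**Figure D4:**
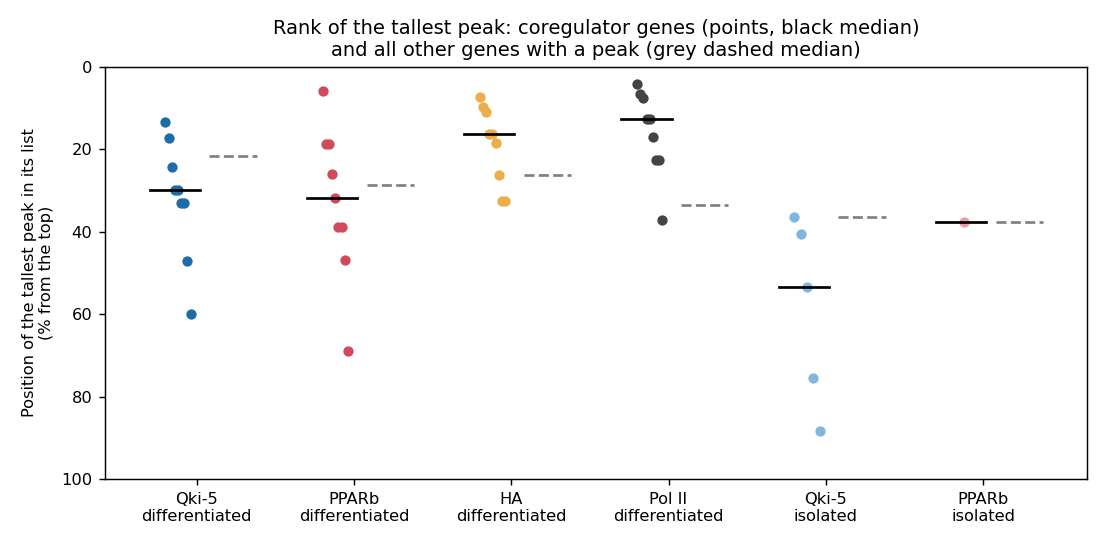
Position of the tallest peak of each gene in its list (y axis, percent from the top) by library, with the median of the 9 genes in black and that of all other genes with a peak as a grey dashed line. The Pol II points lie between 4.17% and 37.1%, and the PPARb points of differentiated cells between 5.85% and 68.9%. The PPARb point at 5.85% is the peak at the Trap1 start, counted for Crebbp.

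Of the 7 sites with an isolated-cell peak, 5 also held differentiated-cell peaks of some antibody and 2 did not. Of the 21 differentiated-cell Qki-5 peaks, 9.52% (1.17 to 30.4) overlapped an isolated-cell Qki-5 peak, against 19.3% elsewhere, and of the 6 isolated-cell Qki-5 peaks, 33.3% (4.33 to 77.7) overlapped a differentiated-cell one, against 69.5% elsewhere. The 2 shared Qki-5 sites were upstream of Ep300 and at Trap1. Of the 20 differentiated-cell PPARb peaks, the one at Pigl had an isolated-cell counterpart. The isolated-cell Qki-5 peaks held 13 to 23 tags at 4.19-fold to 12.3-fold over input. The 2 kinds of cell differ in strain, culture and introduced receptor, and their lists in input and length, so these cannot be told apart.

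Of 38 further coregulator genes, most were occupied at the start in differentiated cells. Among them, 34 had a Qki-5, 33 a PPARb, 35 an HA and 29 a Pol II start peak in differentiated cells, 26 had all 4, and 22 had a Qki-5 and 3 a PPARb start peak in isolated cells. The background shares are those given above for all genes. Kdm1a, a histone demethylase of corepressor complexes, had start peaks in all 6 lists, with Qki-5 at 23.8, PPARb at 18.2, HA at 29.3 and Pol II at 11.7 in differentiated cells, and Qki-5 at 11.5 and PPARb at 10.3 in isolated cells. Smarca4, the motor of a chromatin remodeller, also had all 6, with PPARb at 17.4 in differentiated and 5.98 in isolated cells. A height of 5.98 is the lowest in the isolated-cell PPARb list. Ncoa5, a further coactivator, Hdac1, a deacetylase, and Ctbp1, a corepressor, lacked isolated-cell PPARb alone, with differentiated-cell PPARb at 22.7, 16.9 and 16.9. Of the partners of the Ncor1 complex, Hdac3 and Tbl1xr1 had PPARb start peaks of 6.68 and 14.2 in differentiated cells, and Gps2 of 15.6 in differentiated and 8.7 in isolated cells; these 3 were picked out after their values were seen. Nsd1, a histone methyltransferase, was the one gene of the 38 with no start peak in any list. For 9 of these 38 genes, Hdac1, Hdac3 and Nsd1 among them, no strand was given and start peaks were counted at either end of the span.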

How the data were processed

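The submitters' processing notes name HOMER 4.10.1, SAMtools 1.8, Bowtie 1.2.2, Trim Galore 0.4.4 and bcl2fastq 2.19.1.403, and the build mm10, with no role given. Per the file headers, the authors called peaks of 200 bp with HOMER findPeaks on tags without duplicates, at a false discovery rate of 0.001, with peaks 4-fold above both the input and the 10000 bp around them. The directory names of 2 tag sets, Qki-5 of differentiated cells and the input of isolated cells, hold the word merge without saying of what. Peak height, the normalized tag count, is a deposited signal on a scale of 10000000 tags per library. Fold over input is a ratio from the authors' caller, and a high value can rest on few input tags. Total tags are deposited raw counts in 4 lists. For differentiated-cell Pol II and PPARb they are instead a signal that the authors scaled to the input, and tags were taken there from height and depth.

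Peaks were matched to RefSeq genes of GRCm38.p6, the build of mm10, with Python 3.11.15 and pandas 2.3.3, and the counting was tested on simulated data. Of the 21887 genes, 17492 had a listed start and strand, and for the other 4395 both span ends were used. Peaks of different lists that shared at least 1 bp were called overlapping. Heights have exact Poisson and shares exact Clopper-Pearson intervals of 95% (SciPy 1.17.1), which cover counting error only. With 1 library per group no test between groups was made. Windows, distances, overlap, a fold of at least 8 and lists of equal length were tried as alternatives. The members and lists were chosen with earlier results of these data known. All 9 members are named, and of the 38 further genes the 4 with start peaks in most lists, ties by PPARb height, and those with none. Ctbp1 is also named, since it tied with Hdac1 for the last of these places. Hdac3, Tbl1xr1 and Gps2 were named outside this rule, after their values were seen.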

Additional observations from a re-analysis of the deposited data

How the results depend on the processing

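In differentiated cells the counts of members with a peak and with a start peak stayed within 1.5 times under every alternative tried except lists of equal length. They did not all stay at 9. At 8-fold over input, PPARb had a start peak at 7 members and any peak at 8. The PPARb start peaks of Ncoa3 and Ncoa7 stood at 4.65-fold and 6.55-fold. Within 500 bp of a start, Qki-5 was at 7 members, HA and Pol II at 8 and PPARb at 9. Inside the span, Qki-5 and Pol II were at 7, PPARb at 8 and HA at 9. With the 1391 tallest peaks of each list, members with a peak, peaks and members with a start peak were all 0 for Qki-5, PPARb and HA, and 3 each for Pol II, since fewer peaks were kept. Isolated-cell counts moved more. Members with a Qki-5 peak were 2 (3 peaks) inside the span, 1 (1 peak) at 8-fold over input, 0 (0 peaks) in the tallest 1391, and 3 without the peaks at the starts of Trap1, Pigl and a tRNA gene, an alternative chosen after the data were seen. The member with a PPARb peak, and its peak, were 0 inside the span, at 8-fold and without those starts. Qki-5 start peaks in isolated cells were at 3 members within 2 kb and at 0 at 8-fold or in the tallest 1391, and PPARb at 1 within 2 kb. At 8-fold, further coregulators with an isolated-cell start peak numbered 7 for Qki-5 and 1 for PPARb. Apart from start peaks in lists of equal length, shares over all genes were not counted under these alternatives. The counts therefore show only how the members' own numbers moved.

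With at least 100 bp of overlap, 50.0% of PPARb peaks met HA, and 0% of Qki-5 peaks of either cell kind met the other, which was also so inside the span. At 8-fold the 1 remaining isolated-cell Qki-5 peak was shared, 100%. With centres within 500 bp, 100% of Pol II peaks met PPARb and 100% met HA. For the peak of highest fold at each gene, ranked by fold over input, the median positions in differentiated cells were 15.5% for Qki-5 and 16.5% for PPARb. For HA and Pol II they were 6.26% and 5.2%. In isolated cells they were 79.3% for Qki-5 and 71.6% for PPARb. The cause of these shifts was not tested, and the same shares and positions were not counted for other peaks and genes. No paired analysis was possible because each group has 1 library. A median peak held 14 to 22 tags, which limits the precision of each height and the detection of weaker sites.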

Other observations

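The isolated-cell Qki-5 peak upstream of Ncoa7 overlaps a tRNA gene in part. Of 408 tRNA genes on the assembled chromosomes, 17.4% had a Qki-5 peak centre within 200 bp in differentiated cells and 7.60% in isolated cells. For PPARb the share was 9.31% in differentiated cells and 1.23% in isolated cells. HA stood at 12.3% and Pol II at 4.66% in differentiated cells. Many tRNA genes are near-identical copies, so tags there are uncertain, and the table was looked up after the peak was seen.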
